A study of Mus musculus with 4 samples.

Results

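The 4 mouse TEAD transcription factor genes (Tead1, Tead2, Tead3 and Tead4) and 6 genes of the core of the Hippo pathway around them (Yap1, Wwtr1, Lats1, Lats2, Vgll3 and Vgll4) were followed in Py8119 cells with and without Mtss1 overexpression. The 10 genes were found by symbol among the 50600 genes of the deposited table, each on a single row. They were chosen by the CPM values of Tead2, which lay close to 0 in the control and not with overexpression, and the rest were added as its family and pathway partners. Since the contrast between the groups took part in that choice, their differences are given as a description, with no p-value of their own. Py8119 is a mouse mammary tumour line on the C57BL/6 background that the labels call mesenchymal-like. The control group is 2 libraries titled hygro with the genotype control, and the other group is 2 libraries of cells that overexpress Mtss1, the gene of an actin-binding membrane scaffold protein. All were grown untreated in IMDM with serum. Whether either population is a clone, and what drives the Mtss1 copy, the sources used here do not give. They also do not name separate cultures for the libraries, so errors and p-values cover the spread among these 4 libraries alone, which may be technical.

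The Hippo pathway is a kinase cascade that restrains tissue growth. Its last kinases, LATS1 and LATS2, phosphorylate the coactivators YAP (Yap1) and TAZ (Wwtr1), which are then held in the cytoplasm or degraded. Unphosphorylated YAP and TAZ enter the nucleus, where they have no DNA-binding domain of their own and act mainly through the TEAD factors, while the Vestigial-like proteins (Vgll3 and Vgll4 here) bind TEADs at an overlapping surface. In mammary tumour cells the pathway is known for its links to mechanical tension, the actin cytoskeleton and tumour-initiating capacity.

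Values are CPM, reads per 1000000 after the authors' scaling. The step between values gave 15594209 to 22081639 recovered reads per library, so 3 reads, used as the detection floor, were worth 0.138 to 0.189 CPM. The control libraries held Mtss1 itself at 54.5 and 50.5 CPM, and the overexpression libraries held it at 118 and 119 CPM. All 8 mesenchymal markers listed passed the expression filter (at least 1 CPM in at least 2 libraries), with vimentin at a mean of 4156 CPM in the control, and the epithelial markers Epcam and Krt5 were at 0 in all libraries while the keratin genes Krt8 and Krt18 were expressed. Between the groups, at a limma adjusted p under 0.05, 4 of the mesenchymal markers rose and 3 fell. Sparc rose by 1.18 ± 0.03 and S100a4 fell by 1.51 ± 0.04 (log2 difference with its standard error), and Krt8 and Krt18 fell by 0.67 ± 0.04 and 0.28 ± 0.04. Of 8 immune markers 2 passed the filter. The summed level of all 8 was 21.2 to 22.3 CPM in the control and 96.1 to 96.3 CPM with overexpression. Most of it came from the lysosomal gene Cd68 (19.8 and 17.4 CPM in the control, 91.9 and 92.4 with overexpression). Lyz2, the other that passed the filter, read 2.20 and 3.36 CPM in the control and 4.10 and 3.51 with overexpression. Cd3e and Itgam were at 0. Of 6 endothelial markers 0 passed, and of 7 muscle and fat markers 1 (Des). The part of these genes in the differences below was not tested.

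Among the TEAD factors, Tead2 separated the groups most. Tead2 (ENSMUSG00000030796) lies on the plus strand of chromosome 7 from 45215753 to 45233644 in mm10. Its values were 0.196 CPM in control 1, 0.276 in control 2, 34.7 in overexpression 1 and 34.0 in overexpression 2. These values rest on 4 and 6 reads in the control and on 550 and 571 reads with overexpression. The 2 control libraries were thus barely above the floor of 3 reads, and the 2 overexpression libraries lay close to each other and far above both. From summed reads the ratio was 145, with an exact 95% interval of 78.3 to 302 that covers counting error only. On the log2(CPM + 1) scale the fitted difference was 4.84 ± 0.14 (SE, limma), the third largest rise among 12510 tested genes. Since Tead2 was chosen by this contrast, that rank only describes it. The added 1 understates the change of a gene this low, and with 0.1 or 5 in its place the difference was 6.69 or 2.91. Because the RNA comes from whole cultures, a low level in all cells and a higher level in a few cells cannot be told apart, and the same holds for all genes below.

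The sequence upstream of Tead2 is shown because this gene went from near 0 to a level comparable with other family members. It was taken from RefSeq (build GRCm38.p6, plus strand, chr7:45215542-45215752) and ends at the base before the first annotated base of the gene. Capitals mark CG dinucleotides, the sites of most DNA methylation in mammals.
Tead2: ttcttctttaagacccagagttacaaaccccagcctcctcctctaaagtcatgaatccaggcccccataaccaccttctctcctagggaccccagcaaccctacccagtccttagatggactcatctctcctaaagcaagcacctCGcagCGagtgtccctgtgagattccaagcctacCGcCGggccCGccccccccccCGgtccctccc
This stretch of 211 bases holds 6 CG dinucleotides, all of them nearer to its 3′ end. The 250 bases before the RefSeq start site of Tead2 hold 7, against a median of 6 and an interquartile range of 2 to 16 over 32851 promoters of the same length. Of the other members with a RefSeq promoter, Yap1 had 44, Lats1 37, Vgll4 28 and Vgll3 16, and every start site of Tead3 and Wwtr1 had 17 or more. A second start site of Lats2 had 4, and its first had 31.

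The other TEAD genes moved little. Tead1, a broadly expressed family member (chr7:112679318-112906807), read 183 and 183 CPM in the control and 182 and 185 CPM with overexpression, and its groups overlapped. Its fitted difference was 0.0036 ± 0.04, with a 95% interval of -0.07 to 0.08. Tead4, best known for its part in trophectoderm formation (chr6:128224288-128300823), read 54.8 and 52.8 CPM in the control and 51.8 and 45.8 CPM with overexpression. Its difference of -0.14 ± 0.06 had an interval of -0.27 to -0.01, and overexpression 2 lay further from the control than overexpression 1 did. Tead3 (chr17:28331671-28350817), the lowest of the family in the overexpressing cells, read 9.85 and 11.3 CPM in the control and 14.4 and 11.5 CPM with overexpression. The groups did not overlap, but control 2 and overexpression 2 almost touched, and the difference of 0.26 ± 0.12 was 0.12 without overexpression 1 and 0.41 without overexpression 2.

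**Figure D1:**
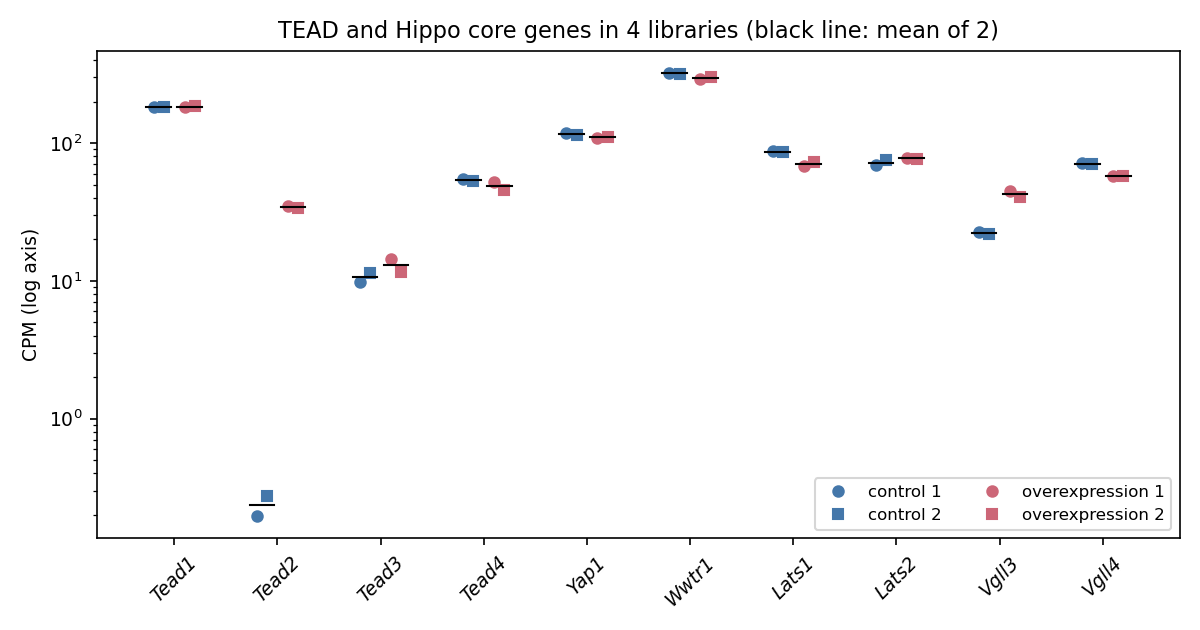
CPM of the 10 genes (log axis) in control 1 and 2 (blue) and overexpression 1 and 2 (red), with black lines at the mean of each pair. Tead2 lies at 0.196 and 0.276 CPM in the control and at 34.7 and 34.0 CPM with overexpression, and Vgll3 is the only other gene whose groups stand clearly apart on this axis.

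Levels of different genes were compared per kilobase of annotated exon, since a longer transcript yields more reads. On that scale of levels Tead4 (15.2 and 14.7 CPM per kb) and Tead1 (13.5 and 13.5) made up most of the TEAD total in the control, Tead3 (1.47 and 1.69) little and Tead2 (0.0409 and 0.0577) almost nothing. Tead2 stood at 7.24 and 7.10 CPM per kb with overexpression, above Tead3 (2.14 and 1.72) and below Tead1 (13.4 and 13.6) and Tead4 (14.4 and 12.7). Tead1 and Tead4 did not differ beyond their spread in the overexpression libraries. Tead2 thus went from 0.164% ± 0.0408 to 19.8% ± 0.510 (SD, n = 2) of the summed TEAD level. The sum itself read 30.2 and 29.9 CPM per kb in the control and 37.2 and 35.1 with overexpression. Without Tead2 it read 30.2 and 29.8 against 29.9 and 28.05, and those ranges overlap. The share of Tead2 with overexpression was 21.01% when the longest transcript gave the length and 12.3% with no length correction. With the longest transcript Tead1 (47.1%) and not Tead4 (44.9%) had the largest share in the control.

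**Figure D2:**
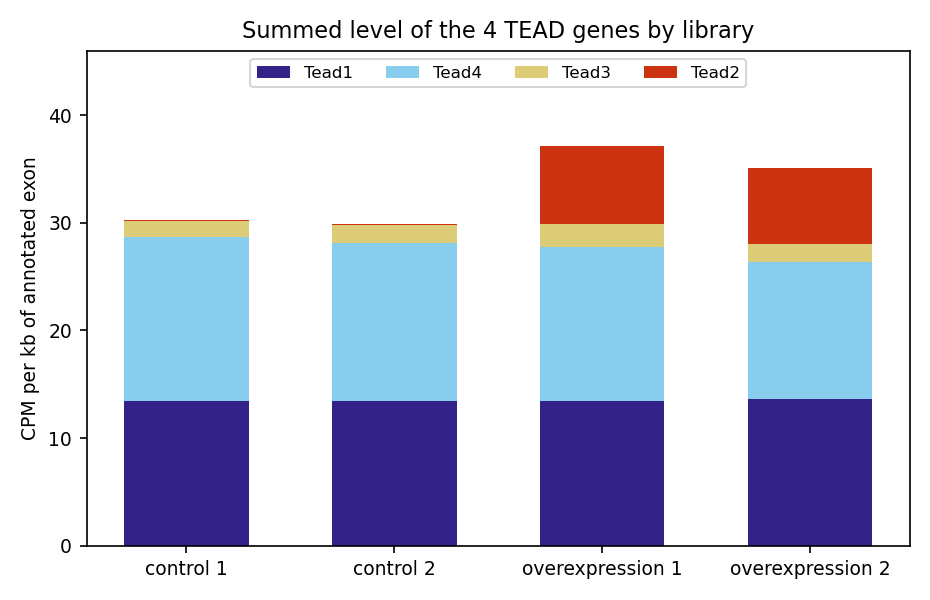
Stacked bars of the levels of Tead1, Tead4, Tead3 and Tead2 in each library, in CPM per kb of annotated exon from 0. The Tead2 segment is 7.24 and 7.10 CPM per kb in the 2 overexpression libraries and too thin to see in the 2 control libraries, while the other segments add up to between 28.05 and 30.2.

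Of the coactivators, Wwtr1 had the highest level of the 10 genes per kilobase in both groups, and both coactivators differed little between the groups. Wwtr1, the gene of TAZ (chr3:57455649-57575910), read 323 and 318 CPM in the control and 291 and 300 CPM with overexpression. Both overexpression libraries lay below both control libraries, with a difference of -0.12 ± 0.04. Yap1 (chr9:7931999-8004596) read 118 and 115 CPM in the control and 110 and 111 CPM with overexpression, a difference of -0.08 ± 0.04 with an interval of -0.17 to 0.01. Per kilobase of exon, Wwtr1 stood at 67.0 ± 0.822 and Yap1 at 12.6 ± 0.223 CPM per kb in the control (SD, n = 2). The Wwtr1 to Yap1 ratio was 5.30 and 5.34 in the control and 5.14 and 5.21 with overexpression, and 3.09 and 3.01 on average with the longest transcript as length. The TAZ transcript was therefore the larger of the pair in every library under either length. The summed TEAD level per summed Yap1 and Wwtr1 level read 0.376 and 0.379 in the control and 0.511 and 0.470 with overexpression. These are RNA levels and carry no information on phosphorylation or on where the proteins are.

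Of the kinase genes, Lats1 was lower with overexpression and Lats2 did not pass. Lats1 (chr10:7681214-7716460) read 87.5 and 85.9 CPM in the control and 68.7 and 72.5 CPM with overexpression, a difference of -0.29 ± 0.05 with no overlap. Lats2 (chr14:57689662-57758388), which is itself a transcriptional target of YAP and TEAD, read 69.4 and 74.8 CPM in the control and 78.3 and 77.0 CPM with overexpression. Its difference of 0.11 ± 0.05 had an interval of -0.00063 to 0.21, and it was 0.05 without control 1 and 0.16 without control 2. The Lats1 to Lats2 ratio per kilobase was 1.21 and 1.10 in the control and 0.838 and 0.8999 with overexpression. The balance of the kinase pair was thus lower in both overexpression libraries, although which of the 2 genes is higher in the control depends on the length used (mean ratio 0.867 with the longest transcript). The sum of the kinases read 21.9 and 22.5 against 20.6 and 20.97 CPM per kb.

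The Vestigial-like genes also parted. Vgll3 (chr16:65815257-65866368), a TEAD-binding cofactor, read 22.4 and 21.9 CPM in the control and 44.6 and 40.4 CPM with overexpression. The overexpression libraries were close to 1.92 times the control on average, with a difference of 0.91 ± 0.07 and a range of 0.80 to 0.98 over 13 alternative settings. Vgll4 (chr6:114860628-114969994), which competes with YAP for TEADs, read 71.2 and 70.0 CPM in the control and 58.0 and 57.3 CPM with overexpression. Both overexpression libraries lay below the control, with a difference of -0.29 ± 0.05. The Vgll3 to Vgll4 ratio per kilobase went from 0.239 and 0.238 to 0.584 and 0.536, and was higher in both overexpression libraries. Whether their sum differed depends on the length used. It read 16.4 and 16.1 against 17.0 and 16.3 CPM per kb of annotated exon, which overlap, 35.6 and 34.97 against 32.7 and 31.8 per kb of longest transcript, and 93.7 and 91.9 against 103 and 97.7 CPM with no length correction. The other 2 genes of the family, Vgll1 and Vgll2, lay under the expression filter.

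Across all tested genes 66.1% passed at a limma adjusted p under 0.05 (31.9% higher and 34.2% lower with overexpression). The groups did not overlap for 81.6% (39.7% higher and 41.9% lower). Of the 10 members, all of which reached the filter, Tead2 only through the overexpression libraries, 2 passed as higher (Tead2 and Vgll3) and 3 as lower (Wwtr1, Lats1 and Vgll4), and 9 did not overlap. Since the contrast took part in their choice, nothing is read from these counts. Tead1, Tead3, Tead4, Yap1 and Lats2 did not pass. With each library scaled to its own total, 4 members were higher and 3 lower, as Tead3 and Lats2 then also passed. Wwtr1 did not pass without overexpression 1, where its difference was -0.09. For scale, 0.016% of tested genes had a larger absolute difference than Tead2, 10.0% a larger one than Vgll3, 48.6% than Lats1, 49.4% than Vgll4 and 99.3% than Tead1.

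**Figure D3:**
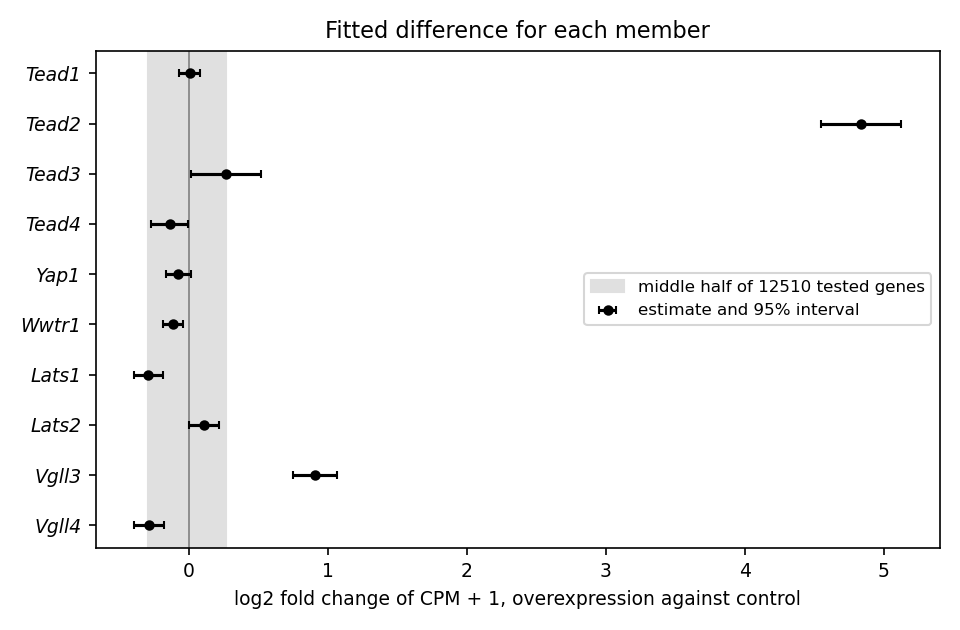
Fitted difference of log2(CPM + 1) for each member, overexpression against control, with its 95% interval. The grey band is the middle part of all 12510 tested genes, from -0.29 to 0.27. Tead2 (4.84) and Vgll3 (0.91) lie right of the band and the other 8 estimates lie within it.

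The genes adjacent to Tead2 on the chromosome stayed under 1 CPM in all libraries. Of 26 other annotated genes that reach within 100 kb of Tead2, 15 are protein-coding, and 9 of those stayed under 1 CPM in all libraries. The adjacent genes Dkkl1, which was at 0 in every library, and Cd37, which read 0 and 0.322 CPM in the control and 0.504 and 0.595 CPM with overexpression, are among them. So are Slc17a7 (0.0490 and 0 CPM in the control, 0.441 and 0.238 with overexpression) and Gm45713 (0.135 and 0, then 0.340 and 0.268). These 2 and Cd37 were higher without overlap, on few reads, while the groups of the rest of the 9 overlapped. The annotations of Cd37 and Tead2 run in opposite directions and overlap by 13 bases, and the sources used here do not say whether the counting used strand. Of 7 neighbours tested, 2 rose, 2 fell and 3 did not pass, where 66.1% of all tested genes passed. The ion channel gene Trpm4 rose by 0.49 ± 0.09 (limma adjusted p = 8.6e-05) and the ribosomal protein gene Rpl13a by 0.15 ± 0.03 (limma adjusted p = 3.3e-04). Aldh16a1 fell by 0.49 ± 0.09 (limma adjusted p = 3.0e-05) and Pih1d1, a chaperone cofactor gene, fell by 0.39 ± 0.10 (limma adjusted p = 0.0015). The nearest of these, Pih1d1, ends 55688 bases from Tead2. Flt3l and the pseudogene Rpl14-ps1 were among those that did not pass, though Flt3l did in 4 alternatives, among them without control 2 (-0.46) and without overexpression 1 (-0.72).

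**Figure D4:**
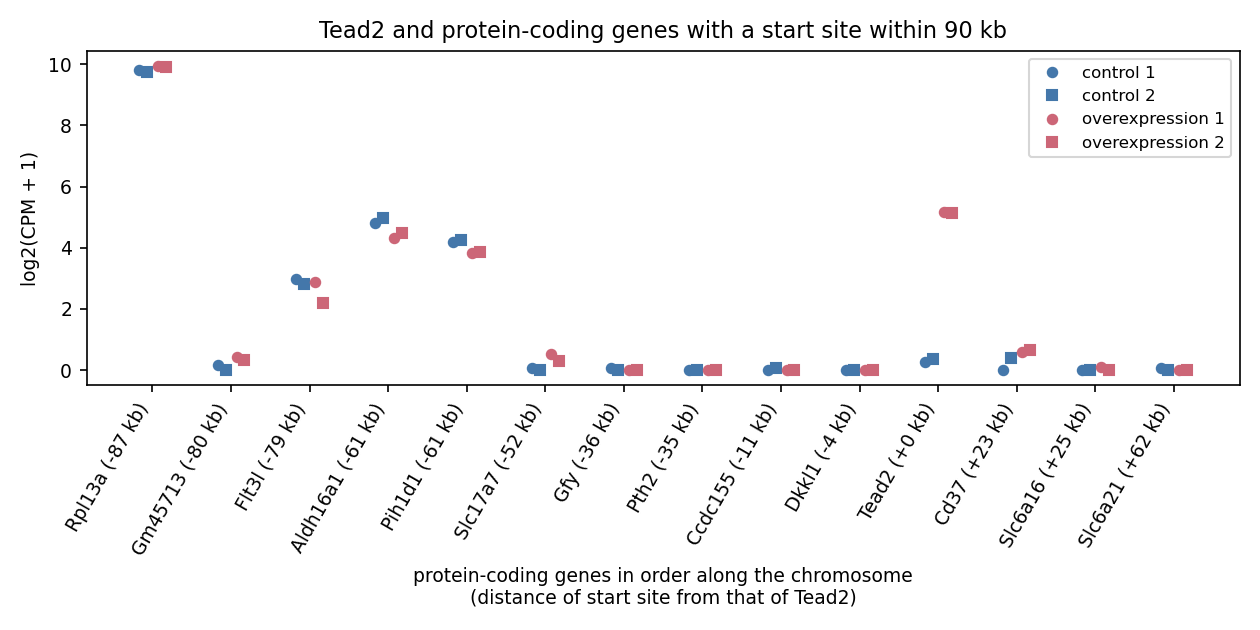
log2(CPM + 1) in the 4 libraries for Tead2 and the 13 protein-coding genes with a start site within 90 kb of its own, in chromosomal order, with the distance of each start site from that of Tead2. Tead2 is the only gene of the row that is near 0 in the control and between 34.0 and 34.7 CPM in the overexpression libraries.

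The genes nearest to Tead2 over the 4 libraries were sought among tested genes, with pseudogenes and predicted or provisionally named genes passed over. By Euclidean distance of log2(CPM + 1) they were Slco5a1 (distance 0.43), Dclk2 (0.66), Arhgap29 (0.68), P3h3 (0.74) and Epb41l3 (0.75). Slco5a1, a transporter gene, read 0.0490 and 0.184 CPM in the control and 27.7 and 29.5 CPM with overexpression. Arhgap29, the gene of a GTPase-activating protein, read 0.637 and 0.414 CPM in the control and 28.0 and 26.0 CPM with overexpression. The 4 libraries share the same 2 groups, so nearness here reflects the level and the contrast and nothing finer. With limits set after the values of Tead2 were seen, 36046 genes were at or under 0.3 CPM in both control libraries. Of these, 9 reached 10 CPM in both overexpression libraries (Tead2, Slco5a1, Epb41l3, Brinp3, Bend4, Zfp704, Hdac11, Tsnax and Celf2). The reverse, from 10 CPM or more to 0.3 CPM or less, was met by 0 genes.

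The wider pathway was described with 5 lists that leave out the 10 members, and hold 101 genes in all, 4 of them in 2 lists. The median difference of all tested genes was -0.01. All 5 lists were written with earlier results of these data known, so their directions are not independent evidence. In the list of cassette kinases and activators, which leaves out Lats1 and Lats2, more genes rose than fell. Of 24 genes 22 were tested, of which 10 rose (45.5%, against 31.9% of all tested genes), 3 fell (13.6%, against 34.2%) and 9 missed the threshold, with a median of 0.11. With 1 CPM required in all libraries, 9 of 21 tested genes of this list rose and 3 fell. Fat4, a giant protocadherin upstream of the pathway, read 0.539 and 0.736 CPM in the control and 14.9 and 16.7 CPM with overexpression. It reached the expression filter only through the overexpression libraries, so no p-value is given for its rise of 3.36 ± 0.15. Smaller rises were seen for the scaffold gene Rassf1 (0.48 ± 0.06), the FERM-domain gene Frmd6 (0.37 ± 0.05) and the kinase gene Map4k4 (0.35 ± 0.04), a LATS activator. Stk38, a relative of LATS, fell by 0.50 ± 0.05 and Stk3, the gene of the kinase MST2 that acts on LATS, fell by 0.25 ± 0.06 (limma adjusted p of 4.1e-04 or lower for these 5). Taok3 fell by 0.24 ± 0.08 (limma adjusted p = 0.012), but not past the threshold without control 2 (-0.21) or overexpression 2 (-0.15). Named after their values were seen, Stk4, Sav1, Mob1a, Mob1b and Nf2, the rest of the central kinase and adaptor set, did not pass, with differences between -0.08 and 0.10.

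Brakes on the cassette, the Ajuba family of LIM proteins and the STRIPAK phosphatase complex, went both ways. Of 19 genes 17 were tested, of which 3 rose (17.6%, against 31.9% of all tested genes), 5 fell (29.4%, against 34.2%) and 9 missed the threshold, with a median of -0.03. With each library scaled to its own total the split was 5 higher and 2 lower. Stk24, a kinase of the STRIPAK complex, read 95.5 and 105 CPM in the control and 67.2 and 61.3 CPM with overexpression, a fall of 0.63 ± 0.06 (limma adjusted p = 1.0e-09), and the scaffold gene Slmap fell by 0.35 ± 0.05 (limma adjusted p = 1.5e-06). Wtip of the Ajuba family rose by 0.31 ± 0.06 (limma adjusted p = 1.5e-04). The changes of Strn4 (-0.13 ± 0.05), Ajuba (-0.13 ± 0.05) and Ppp2ca (0.09 ± 0.04) had limma adjusted p-values of 0.016 to 0.027. Each of these 3 lost its call without control 2, where the differences were -0.11, -0.14 and 0.07, and without overexpression 2 (-0.10, -0.12 and 0.10). Ajuba (-0.11) lost it without control 1, and Ajuba (-0.14) and Ppp2ca (0.09) without overexpression 1.

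Genes for proteins that hold YAP and TAZ at junctions or in the cytoplasm, set polarity or mark them for turnover went both ways. Of 25 genes 24 were tested, of which 7 rose (29.2%, against 31.9% of all tested genes), 6 fell (25%, against 34.2%) and 11 missed the threshold, with a median of 0.0014. With 1 CPM required in all libraries, 7 of 23 tested genes of this list rose and 6 fell. Patj, a polarity scaffold gene, read 0.0980 and 0.0920 CPM in the control, under the floor of 3 reads, and 4.29 and 4.999 CPM with overexpression. It reached the expression filter only through the overexpression libraries, so no p-value is given for its rise of 2.36 ± 0.19. Its partner in the Crumbs complex, Mpp5, rose by 0.72 ± 0.06 (limma adjusted p = 2.7e-10). Amotl2, an angiomotin that binds YAP and is also a YAP target, rose from 98.1 and 99.2 to 197 and 188 CPM (0.96 ± 0.04, limma adjusted p = 4.8e-15). Amot rose by 0.27 ± 0.07 (limma adjusted p = 0.0025), though not past the threshold without overexpression 1 (0.18). The phosphoserine-binding adaptor genes Ywhaz and Ywhab fell by 0.40 ± 0.03 and 0.34 ± 0.04, and the polarity gene Dlg5 fell by 0.29 ± 0.04 (limma adjusted p of 4.3e-06 or lower). Of 11 other nuclear cofactors tested, 4 rose and 4 fell (36.4% each, against 31.9% and 34.2% of all tested genes), while 3 missed the threshold and the median was -0.06. The coactivator gene Ncoa1 rose from 7.45 and 8.79 to 19.7 and 19.5 CPM (1.18 ± 0.11), Ncoa3 rose by 0.28 ± 0.06, and Wbp2, whose protein binds YAP and TAZ, rose by 0.21 ± 0.04. The acetyltransferase gene Ep300 fell from 208 and 226 to 141 and 148 CPM, a fall of 0.58 ± 0.04. Irf2bp2 fell by 0.51 ± 0.05 and the chromatin remodelling gene Arid1a fell by 0.29 ± 0.05 (limma adjusted p of 6.5e-04 or lower for these 6). Ncoa2 (-0.16 ± 0.05, limma adjusted p = 0.014) passed by less, and lost the call without overexpression 1 (-0.15) and without control 1 (-0.11).

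Widely used target genes of YAP, TAZ and TEAD were more often higher. Of 24 genes 22 were tested, of which 13 rose (59.1%, against 31.9% of all tested genes), 6 fell (27.3%, against 34.2%) and 3 missed the threshold, with a median of 0.31. Of the 13, Edn1 (outside the naming rule) reached the expression filter only through the overexpression libraries. It read 0.294 and 0.230 CPM in the control and 1.51 and 1.13 CPM with overexpression. With 1 CPM required in all libraries, 12 of 21 tested genes of this list rose and 6 fell. Cyr61, a matricellular protein gene, read 425 and 379 CPM in the control and 1258 and 1227 CPM with overexpression (1.63 ± 0.04, limma adjusted p = 3.1e-19). Ankrd1, the gene of a nuclear and sarcomeric ankyrin repeat protein, read 130 and 132 CPM in the control and 316 and 328 CPM with overexpression (1.29 ± 0.04, limma adjusted p = 3.9e-18). Ctgf (2.29 ± 0.12) and Tgfb2 (2.16 ± 0.12) rose most on this scale. Members of the list also fell, among them Asap1 (-0.79 ± 0.03), Foxf2 (-0.46 ± 0.11), Myof (-0.37 ± 0.03) and Dock5 (-0.31 ± 0.04), with limma adjusted p-values of 0.0011 or lower. The list was written with earlier results of these data known, and Ctgf and Tgfb2 were among the genes known to be higher, so its direction is not independent evidence.

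**Figure D5:**
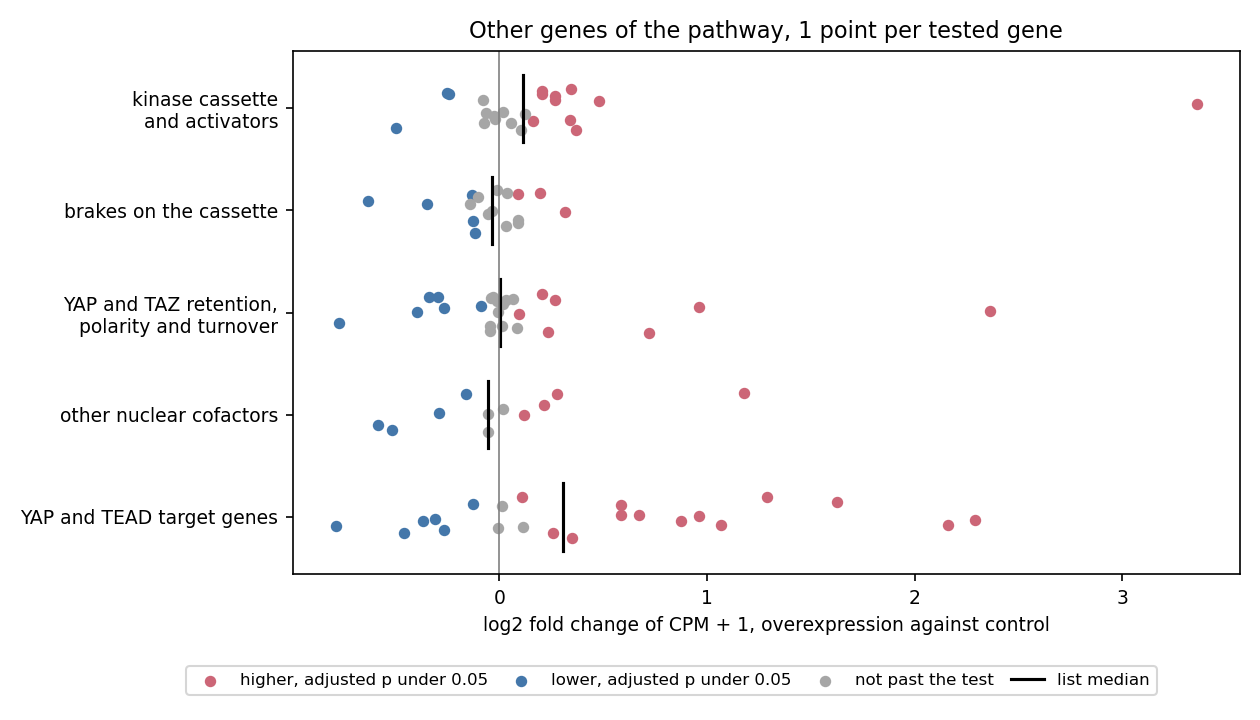
Fitted difference of log2(CPM + 1) for each tested gene of the 5 lists (red higher and blue lower at a limma adjusted p under 0.05, grey not past it), with a black line at the list median. The target gene list has the highest median (0.31), and Fat4 (3.36) and Patj (2.36) lie farthest right in their lists.

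The TEAD binding element, known as the M-CAT element and searched as GGAATG or its reverse complement CATTCC on both strands, was looked for in the 250 bases before each RefSeq start site. Of the 10 members 8 matched a RefSeq promoter, and Tead1 and Tead4 are named only. At least 1 match was present for 5 of the 8 (Yap1, Wwtr1, Vgll3, Vgll4 and Tead3). These 8 genes have 12 windows, some of which overlap, and 7 windows held a match. The letters were held by 14.4% of 27025 genes and 12.6% of 32851 promoters. As the members were chosen and not drawn at random, nothing is read from these shares. No match was found for Tead2, Lats1 and Lats2 in these windows. The matches that lie outside the annotation of their own gene are shown with 10 bases on each side. Overlap with other annotated genes was not checked. They are shown because these letters lie upstream of genes of the TEAD factors' own partners and of a TEAD gene. Capitals mark the element, and each is written 5′ to 3′ on the strand of its gene.
Yap1: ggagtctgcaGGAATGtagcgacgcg
Wwtr1: taaactcaaaGGAATGcagataggcg
Vgll3: cgcctccccaCATTCCggctaccctg
Tead3: cgacgagcgaGGAATGgggtgcgcgg
They lie in GRCm38.p6 at chr9:8004722-8004747 on the minus strand for Yap1, chr3:57576031-57576056 on the minus strand for Wwtr1, chr16:65815116-65815141 on the plus strand for Vgll3 and chr17:28350972-28350997 on the minus strand for Tead3. The element starts 141, 136, 63 and 182 bases before the start site in that order. Wwtr1 and Tead3 have more than 1 RefSeq start site, and their distances are from the one farthest upstream. The Tead3 match shown lies outside the windows of the other Tead3 start sites. Of these 4 genes Vgll3 was higher with overexpression (0.91), Wwtr1 was lower (-0.12), and Yap1 (-0.08) and Tead3 (0.26) did not pass. A match describes letters only, and no binding was measured.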

How the data were processed

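RNA sequencing of 2 control and 2 Mtss1-overexpressing libraries was used. The deposited values are CPM, an assignment made from the values; the sources used here do not name the authors' scaling. The submitters' processing notes list FastQC 0.11.2, STAR, RSEM and mm10, without roles. Dividing by the CPM of 1 read gave values whole within 0.005 read for 79.6% to 80.5% of nonzero entries, so the main fit did not treat them as counts. Recovered reads were used as counts for the Tead2 counting interval, the comparison of replicates and the limma-voom alternative. Replicate pairs differed by more than sampling noise (median chi-square 2.03 and 1.77 times the Poisson value) and were kept as 2 replicates.

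Expression was fitted with limma 3.58.1 in R 4.3.3 (mean-dependent prior) on log2(CPM + 1) over the 12510 genes that reached 1 CPM in 2 or more libraries, with Benjamini-Hochberg adjustment and a threshold of 0.05. Coordinates and exon lengths came from GENCODE M21, and promoters from RefSeq. The steps were tested on simulated data. The members and lists were chosen with earlier results of these data known. Genes named are the members, Mtss1, up to 4 per list and direction with the largest changes past the threshold (mean of at least 1 CPM, no overlap), the 5 nearest to Tead2, and its neighbours within 100 kb. Genes outside this rule are marked, apart from markers, and some that meet it are not reported here. Alternatives were other scalings, filters, pseudocounts, limma-voom on recovered reads, a threshold of 0.01, a replicate block and leaving out each library, with the tested genes kept.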

Additional observations from a re-analysis of the deposited data

How the results depend on the processing

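Over 13 alternatives the count of genes called among all tested stayed between 7046 and 8377 (8273 as reported), and that of the 10 members between 5 and 7. For the brakes on the cassette 8 genes were called as reported, 4 at an adjusted p under 0.01, and 5 to 7 when each library was left out in turn. The Tead2 share of the summed TEAD level with overexpression was 19.8% as reported, 21.01% with the longest transcript length, 12.3% with no length correction and 19.5% to 20.2% when each library was left out. Tead1, with a difference of 0.0036, ranged from -0.0075 (without overexpression 2) to 0.015 when each library was left out. Tead2 was not tested where all 4 libraries had to reach 1 CPM. Libraries with the same replicate number showed no shared deviation (correlation of their deviations -0.02 across genes). That value cannot tell whether they were prepared together. With the number as a replicate block 8377 genes and 7 members were called, Tead3 and Tead4 in addition. With 2 libraries a group, and 10 control reads in all for Tead2, its control level is known only within a wide counting error.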
